A study of Mus musculus with 6 samples.

Results

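The transcription factors that mark dorsal horn neurons were followed in the cervical spinal cord of mice with an inflamed nape. They were 10 genes chosen by name, among 54532 gene identifiers in each table. Lmx1b, Tlx3, Ebf2, Maf and Prrxl1 stood for the excitatory lineages and Pax2, Lbx1, Bhlhe22, Rorb and Gbx1 for the inhibitory lineages. All 10 were found by symbol, and all 10 passed the filter on low values. The mice were C57BL/6, of a sex and age not given in the sources. The 3 control mice had acetone, the vehicle. The 3 mice with allergic contact dermatitis (ACD), an itching skin allergy, were challenged on the shaved nape with 20 µl of 1% squaric acid dibutylester (SADBE) on 3 days, 5 days after SADBE had been applied to the shaved abdomen on 3 days. Whether the controls were also sensitised on the abdomen is not clear from the labels. Each library held cervical cord, taken here as that of 1 mouse because the labels call the samples biological replicates. A gene expressed in other cells of the cord was therefore counted there too. A lower value of a gene can come from fewer cells of a type or from less RNA per cell, which cannot be told apart in such samples.

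The dorsal horn is the part of the spinal cord that receives touch, pain, itch and temperature signals from the skin. Its neurons are born in the embryo from progenitors whose daughters carry different homeodomain factors, and the choice between Tlx3 with Lmx1b and Pax2 goes with the choice between glutamate and GABA or glycine as transmitter. Tlx3 sustains the glutamatergic fate and opposes the inhibitory one, Lmx1b acts beside it, and Prrxl1, also called Drg11, is expressed downstream of both in neurons that meet sensory afferents. The grouping is a simplification. Lbx1 is present early in both kinds of dorsal interneuron, Maf and Bhlhe22 mark neurons of both kinds, Maf is also expressed by microglia, and Rorb is also expressed by astrocytes.

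The values were FPKM, read counts per exon length and library size, which allow levels of different genes to be compared per length. The library constant of the FPKM, recovered from the steps between low values, was 16916600 to 18583992 in controls and 17346315 to 20245576 in ACD. Recovered reads summed to 16517302 to 18915346 in controls and 18525474 to 21487893 in ACD. They were 0.976 to 1.03 times the constant in controls and 1.04 to 1.07 times in ACD, and the cause was not tested. Correlations of log2 values across the genes tested were 0.947 to 0.974 within the groups and 0.944 to 0.956 between them, and genes are not independent replicates. Cell type markers placed the tissue as cord: Snap25 of neurons averaged 366 FPKM, Mbp of myelin 2713 and Gfap of astrocytes 494. Markers of skin-supplying sensory ganglion neurons were near the limit of detection, with Mrgprd at 0 in all 6 libraries, which allows up to 0.0564 FPKM at a limit of 3 reads for counting error only, and Scn10a at no more than 0.117 FPKM. Tph2, Fev and Slc6a4, markers of brainstem serotonergic neurons that also use Lmx1b, summed to 0.321 to 0.379 FPKM in controls and 0.273 to 0.486 in ACD.

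Promoter stretches of 3 members are shown. Lmx1b, Tlx3 and Rorb were among the 8 members of 10 that were lowest in ACD replicate 1, and Rorb had the smallest p of the 10. Each is the 250 bases before the RefSeq transcription start in GRCm38.p6, with the homeodomain core TAAT or its reverse complement ATTA in capitals. The Lmx1b stretch lies at chr2:33641099-33641348 on the minus strand, that of Tlx3 at chr11:33203589-33203838 on the minus strand, and that of Rorb, from the upstream start in the table, at chr19:19111197-19111446 on the minus strand.
Lmx1b promoter: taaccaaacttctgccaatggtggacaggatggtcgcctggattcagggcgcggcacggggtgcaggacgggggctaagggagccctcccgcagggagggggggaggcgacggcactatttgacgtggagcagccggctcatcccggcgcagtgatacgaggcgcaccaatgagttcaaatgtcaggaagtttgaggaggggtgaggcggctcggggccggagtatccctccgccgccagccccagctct
Tlx3 promoter: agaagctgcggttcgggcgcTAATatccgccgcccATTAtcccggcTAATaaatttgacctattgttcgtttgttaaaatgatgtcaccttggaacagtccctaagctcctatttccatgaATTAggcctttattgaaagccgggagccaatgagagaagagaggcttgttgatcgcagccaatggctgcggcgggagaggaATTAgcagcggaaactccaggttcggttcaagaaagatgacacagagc
Rorb promoter: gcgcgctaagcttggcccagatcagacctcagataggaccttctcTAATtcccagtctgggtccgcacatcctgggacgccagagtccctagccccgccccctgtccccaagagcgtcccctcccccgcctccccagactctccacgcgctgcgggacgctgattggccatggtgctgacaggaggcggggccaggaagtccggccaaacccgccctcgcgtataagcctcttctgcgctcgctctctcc
The Tlx3 stretch held 5 matches to the core, the Rorb stretch shown 1 and that of Lmx1b 0. Of all 32851 promoter stretches of the same length, 54.9% held at least 1 on either strand, and 4 of the 8 listed for members did. The other Rorb stretch listed, at chr19:19001118-19001367 on the minus strand, held 4 and had a GC content of 39.2%. The palindrome TAATTA, found in 4.84% of all stretches, was in none of the 8 stretches listed for 5 members. Entries were found for Lmx1b, Tlx3, Prrxl1, Pax2 and Rorb. GC content of the stretches shown was 65.2% for Lmx1b, 48.8% for Tlx3 and 66.0% for Rorb, against a median of 52.4%.

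The comparison asked whether the identity genes of excitatory or inhibitory dorsal horn neurons differ in amount between ACD and control cords. None of the 10 passed in limma's moderated test at a Benjamini-Hochberg adjusted p of 0.05, where 4.34% of 21369 genes tested did so, 1.81% higher and 2.53% lower in ACD. Each member had at least 54 reads in every library, and 4.72% of genes with a mean of at least 10 reads passed. None had an unadjusted p under 0.05 either, against 22.3% of all genes. Adjusted p-values ran from 0.226 to 0.994. Fold changes are given as ACD over control, in log2 units of FPKM + 0.1. They were below 0 for 8 members and above 0 for Maf and Bhlhe22, where Maf was below 0 with TPM scaling, and 51.4% of all genes tested were below 0. The median was -0.06 over the 5 excitatory members, -0.10 over the 5 inhibitory members and -0.01 over all genes. The excitatory median was -0.25 without ACD 3, 0.11 without ACD 1 and 0.06 without control 1. With voom on recovered reads none passed as well. In 7 of 15 alternatives, voom among them, 1 member had an unadjusted p under 0.05, which was Rorb in 5 and Gbx1 in the other 2.

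Lbx1, a homeodomain factor of dorsal interneurons, had the highest level per length, with a mean of 6.22 FPKM over the 6 libraries and a range of 5.29 to 7.09 that did not reach that of any other member. Maf at 4.54 and Pax2 at 4.35 came next, with ranges that overlapped each other and those of Prrxl1, Lmx1b and Tlx3. Prrxl1, Lmx1b, Bhlhe22, Tlx3 and Ebf2 had means of 2.79 to 3.42 FPKM with overlapping ranges, so their order is not settled. Gbx1 at 2.18 and Rorb at 1.82 had the lowest means. Their ranges over the 6 libraries overlapped each other and those of Ebf2 and Tlx3, and Gbx1 also overlapped Prrxl1. Within each of the 6 libraries, however, Rorb was the lowest member and Gbx1 the next lowest. By comparison Slc17a6, the vesicular glutamate transporter of these cells, averaged 45.2 FPKM and Slc32a1, the vesicular transporter of GABA and glycine, 60.4.

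**Figure D1:**
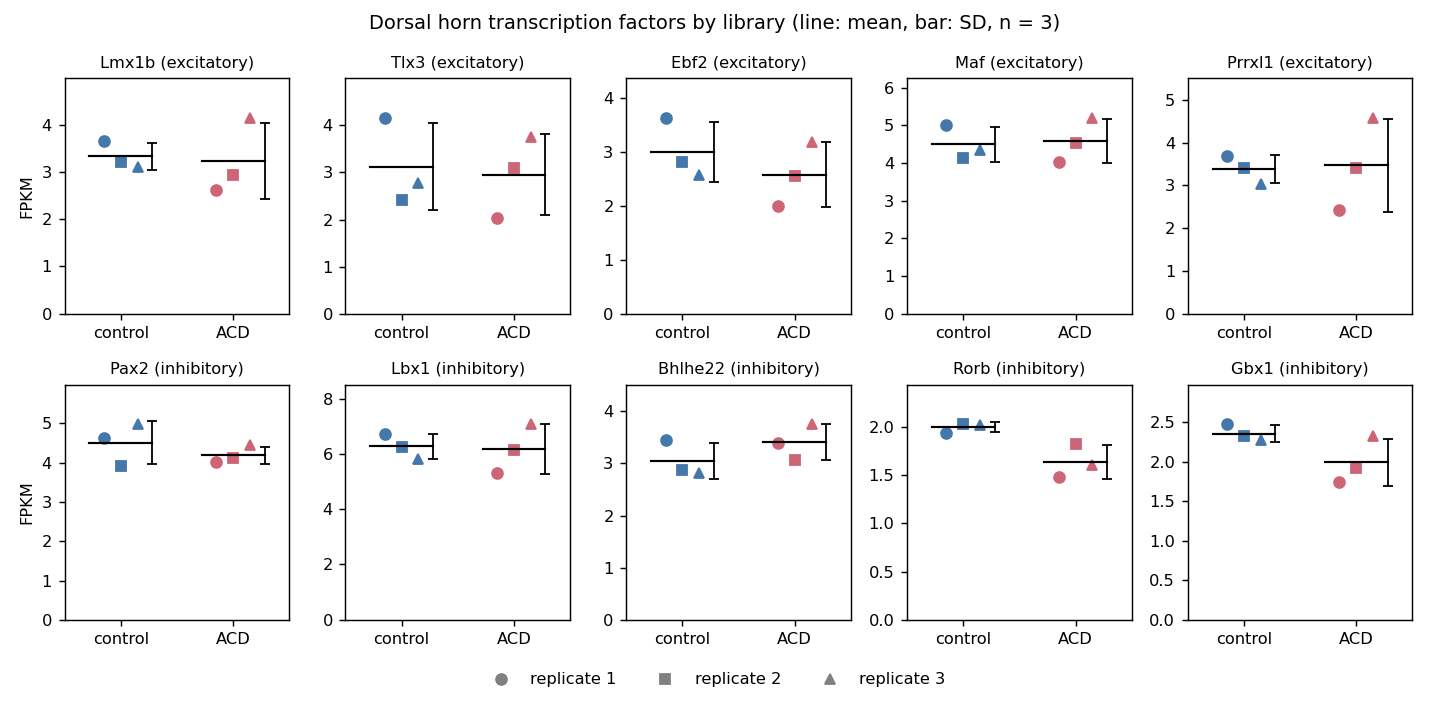
FPKM of each of the 10 members (y axis, starting at 0, a scale for each panel) in the 3 control and 3 ACD libraries (x axis). Points are libraries, with the shape giving the replicate number, lines are means and bars are SD. The groups overlap in every panel but that of Rorb, and ACD 1 is the lowest library in 8 of the 10 panels.

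Among the excitatory members, Tlx3 varied most. This homeodomain gene lies on chromosome 11 at 33200752 to 33203589. Its level was 4.16, 2.42 and 2.78 FPKM in controls 1 to 3 and 2.03, 3.09 and 3.74 in ACD 1 to 3. The highest value was a control and the lowest an ACD library, but the other 4 lay between them in mixed order. The means were 3.12 ± 0.920 and 2.96 ± 0.865 (SD, n = 3), and the log2 fold change was -0.08 with a 95% interval of -0.71 to 0.54 (limma, adjusted p = 0.885). The values rested on 54 to 108 reads, and these 6 libraries do not exclude a change of either sign within that interval.

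Lmx1b, a LIM homeodomain factor needed for excitatory dorsal horn neurons to survive and wire, lies on chromosome 2 at 33560965 to 33640511. Controls had 3.66, 3.22 and 3.12 FPKM and ACD libraries 2.62, 2.95 and 4.16. The ACD values spanned the controls on both sides. The difference was -0.06 on the log2 scale, with an interval of -0.46 to 0.34 (limma, adjusted p = 0.864). Prrxl1, a paired-like homeodomain factor on chromosome 14 at 32599407 to 32649246, showed the same picture. It was at 3.68, 3.42 and 3.03 FPKM in controls and at 2.42, 3.40 and 4.59 in ACD, the last 1.90 times the first of the 3. Its log2 fold change was -0.0040 (interval -0.51 to 0.50, limma adjusted p = 0.994).

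Ebf2 and Maf belong to other protein families. Ebf2, an early B-cell factor of the helix-loop-helix type, lies on chromosome 14 at 67233292 to 67430918. Its values were 3.63, 2.80 and 2.56 FPKM in controls and 1.99, 2.55 and 3.19 in ACD. Of the 5 excitatory members it had the lowest log2 fold change, at -0.22 (interval -0.68 to 0.24, limma adjusted p = 0.549), and the groups overlapped. It was -0.38 without ACD 3 and -0.055 without ACD 1. Maf, a basic leucine zipper factor of deep dorsal horn neurons that receive touch, lies on chromosome 8 at 115682942 to 115707794 and had the narrowest interval of the 5. It was at 5.01, 4.12 and 4.35 FPKM in controls and 4.02, 4.52 and 5.20 in ACD, a difference of 0.03 (interval -0.26 to 0.31, limma adjusted p = 0.924). Microglia and macrophages express Maf too. The 7 microglial markers summed to 80.0 to 98.2 FPKM in controls and 98.8 to 106 in ACD, and 5 markers of border macrophages to 4.35 to 9.66 and 8.998 to 12.02. Tmem119 alone of these passed, higher in ACD (0.53, limma adjusted p = 0.0394), and the part of these cells in the level of Maf was not tested. Antisense genes overlap exons of Ebf2 and Maf by 424 and 440 bases. The sources do not say whether counting used strand, and these antisense genes averaged 0.0048 and 0 FPKM.

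Of the inhibitory members, Rorb came nearest to a difference. This nuclear receptor of inhibitory and some excitatory neurons of the deep dorsal horn lies on chromosome 19 at 18930605 to 19111196. It was at 1.94, 2.03 and 2.02 FPKM in controls and 1.48, 1.82 and 1.60 in ACD. Each ACD library was below each control, and it was the 1 member of 10 whose groups did not overlap, as in 28.6% of all genes tested. The means were 1.996 ± 0.0511 and 1.64 ± 0.175 (SD, n = 3), and the log2 fold change was -0.28 with an interval of -0.55 to 0.0011 (limma, adjusted p = 0.226). After removal of what exon length and GC content predict, the difference was -0.09 (adjusted p = 0.675), and with TPM scaling -0.37 (adjusted p = 0.143). Rorb has the longest exons of the 10, at 11076 bases, and the lowest GC content, at 42.0%. Astrocytes express Rorb too, and their 6 markers summed to 706 to 825 FPKM in controls and 917 to 985 in ACD, and Gfap passed as higher (0.48, limma adjusted p = 0.0332). Without Gfap the other 5 markers summed to 323 to 377 FPKM in controls and 369 to 397 in ACD, which overlapped. The part of astrocytes in the level of Rorb was not tested.

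Gbx1, a homeodomain factor of inhibitory dorsal horn neurons on chromosome 5 at 24502757 to 24527202, was lower in ACD by a like amount without passing. It was at 2.48, 2.32 and 2.27 FPKM in controls and 1.74, 1.92 and 2.33 in ACD. ACD 3 lay among the controls, and the other 2 ACD libraries below them. The difference was -0.24 (interval -0.54 to 0.06, limma adjusted p = 0.324), -0.35 without ACD 3 (adjusted p = 0.229) and -0.15 without ACD 1 (adjusted p = 0.617). It rested on 105 to 150 reads in a library.

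Pax2, the paired-box factor that marks GABAergic neurons of the dorsal horn, lies on chromosome 19 at 44756045 to 44837871. It was at 4.62, 3.92 and 4.99 FPKM in controls and 4.01, 4.12 and 4.44 in ACD, a difference of -0.10 (interval -0.35 to 0.15, limma adjusted p = 0.625). This interval was the narrowest of the 10, and it reaches from 0.785 to 1.11 times the control level. The difference was -0.19 without control 2 and -0.024 without control 3. Lbx1, on the same chromosome at 45232684 to 45235812, was at 6.73, 6.24 and 5.83 in controls and 5.29, 6.14 and 7.09 in ACD. Its ACD values again spanned the controls (-0.03, interval -0.31 to 0.25, limma adjusted p = 0.910). Bhlhe22, a basic helix-loop-helix factor whose loss in inhibitory neurons makes mice itch, lies on chromosome 3 at 18054174 to 18057517. Its log2 fold change was the highest of the 10. It was at 3.45, 2.88 and 2.81 FPKM in controls and 3.40, 3.07 and 3.76 in ACD, with overlapping groups (0.16, interval -0.12 to 0.44, limma adjusted p = 0.486). The difference was 0.25 without control 1, 0.088 without ACD 3 and 0.064 with TPM scaling.

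**Figure D2:**
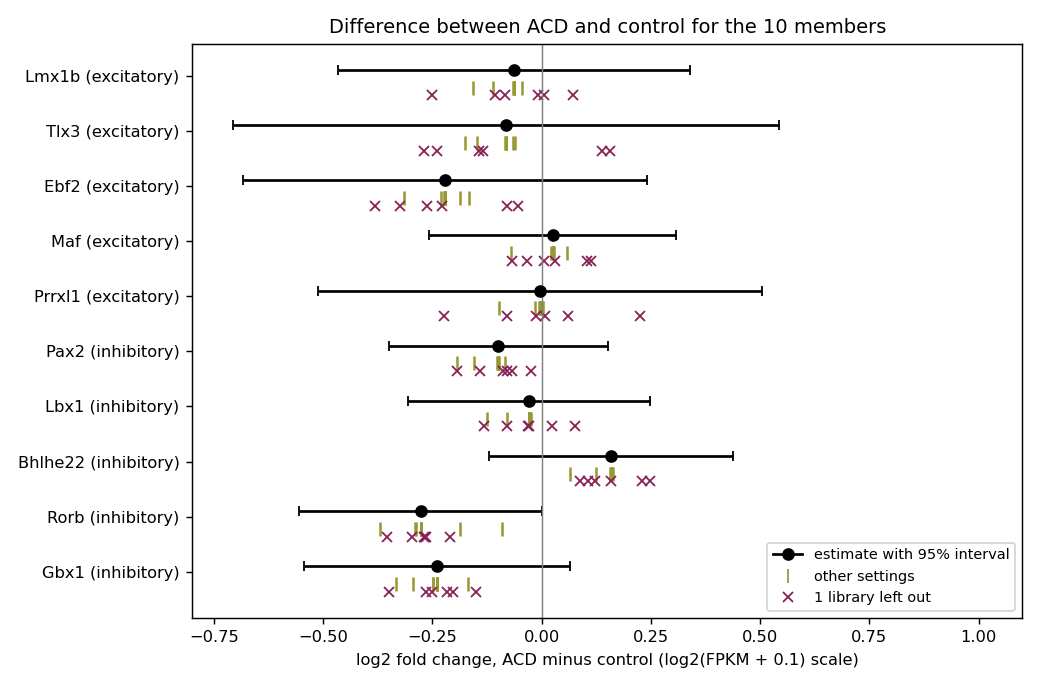
Log2 fold change, ACD minus control (x axis), for each member (y axis). Black points and bars are the estimate with its 95% interval, ticks are other ways of processing and crosses are fits with 1 library left out. Every interval includes 0, that of Rorb by 0.0011, and crosses lie on both sides of 0 for Lmx1b, Tlx3, Maf, Prrxl1 and Lbx1.

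The spread between mice of 1 group had a common order across most members. ACD 1 was the lowest of the 6 libraries for 8 of the 10, all 5 excitatory members with Lbx1, Rorb and Gbx1, against 14.5% of all genes tested. For Lmx1b, Maf, Prrxl1 and Lbx1 it was the lowest and ACD 3 the highest, which held for 1.73% of all genes. Within ACD, mouse 1 was lowest and mouse 3 highest with mouse 2 between them for 8 members, against 18.4% of all genes. Within the controls, mouse 1 was highest for 8 members, all 5 excitatory ones among them, against 33.3%. These counts were chosen after the values had been seen, and they describe 6 libraries. The SD within groups on the log2 scale was 0.16 to 0.42 for excitatory and 0.10 to 0.16 for inhibitory members, beside a median of 0.15 for all genes tested with a mean of 1 to 10 FPKM. C130021I20Rik, a gene beside Lmx1b, was named after its values were seen, so its order is no independent support. It was at 6.24, 4.91 and 4.12 FPKM in controls and 3.69, 4.89 and 5.92 in ACD, with the same lowest library and the same order within each group as Lmx1b (-0.08, limma adjusted p = 0.854).

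Other transcription factors were read from lists of related genes. Of 14 other factors of excitatory dorsal lineages 11 were tested, and none passed. The smallest p was that of Zfhx3, a zinc finger homeobox gene (-0.47, limma adjusted p = 0.152), and Ebf3, a relative of Ebf2, had the highest level. Ebf3 was at 8.07, 6.96 and 6.74 FPKM in controls and 5.22, 6.55 and 8.16 in ACD, so ACD 1 was again lowest and ACD 3 highest. For 6 of the 11 the ACD libraries stood in the order seen in the members, against 18.4% of all genes tested. Ebf1 and Mafa, relatives of Ebf2 and Maf named after their values were seen, were among these. Ebf1 was at 5.57, 4.82 and 4.78 FPKM in controls and 4.04, 5.18 and 5.96 in ACD, and Mafa at 6.58, 6.09 and 5.07 and at 4.76, 5.61 and 6.27. Tlx1 and Atoh1, which act in the embryo, were at 0 in all 6 libraries, which allows up to 0.0829 and 0.0836 FPKM by the same limit. Of 13 other factors of inhibitory lineages 10 were tested and none passed. Sall3 had the highest level among them, at a mean of 2.73 FPKM and with a difference of 0.05 (limma, adjusted p = 0.880). ACD 1 was the lowest library for 0 of the 10, and 4 had the order of ACD libraries seen in the members. Ptf1a, the embryonic switch to the inhibitory fate, was at 0 in all 6 libraries, which allows up to 0.118 FPKM.

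Of ventral horn factors, none of 15 tested passed. ACD 1 was the lowest library for 0 of them, as for the other inhibitory factors, against 14.5% of all genes tested. The order of ACD libraries seen in the members held for 2, against 18.4% of all genes. Genes of motor neurons stood nearly the other way round from the excitatory members. Prph, a filament of motor neurons, was at 23.2, 40.0 and 38.8 FPKM in controls and 48.6, 34.5 and 29.9 in ACD, highest where Tlx3 was lowest. As a median over 4 motor neuron genes, ACD 1 lay 0.35 above and ACD 3 lay at -0.25 relative to the mean over libraries on the log2 scale. The 5 excitatory members had -0.44 and 0.33 in the same libraries. Pan-neuronal genes had 0.07 and 0.04. The 3 tested sensory ganglion genes were highest in control 1 and ACD 3 of their groups, with medians of 0.30 and 0.63, and all 8 listed genes summed to 1.08 to 1.77 FPKM in controls and 1.09 to 2.06 in ACD. Border macrophage markers had the order of the excitatory members within each group, from -0.88 in control 3 to 0.67 in ACD 3. The part of any of these cell populations in the members' values was not tested.

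**Figure D3:**
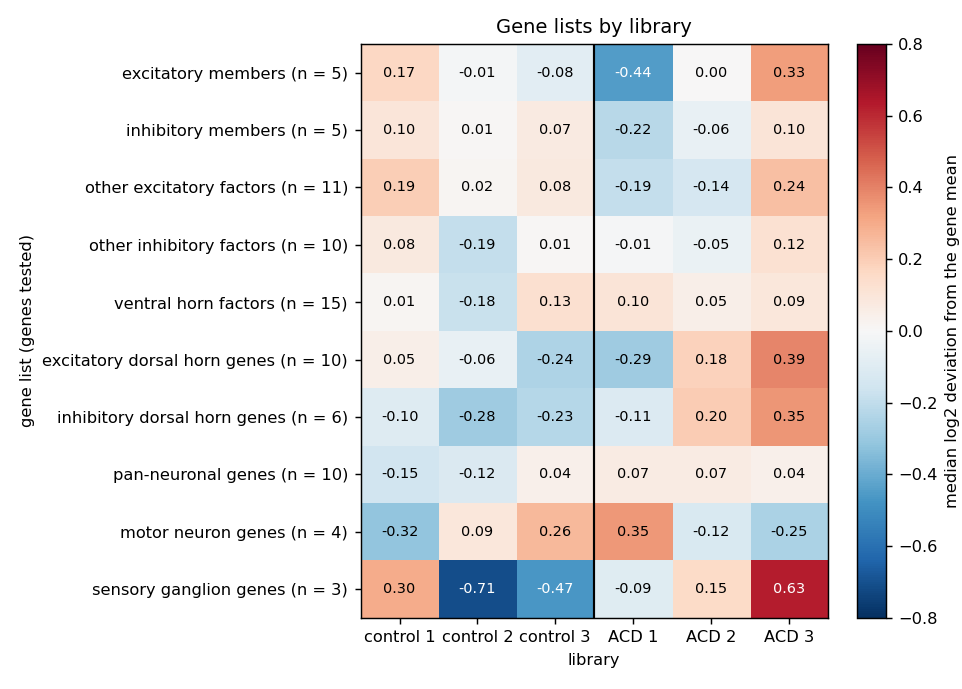
Gene lists (y axis) in each library (x axis), with colour and number giving the median over the list's tested genes of the log2 deviation from the gene's mean over the 6 libraries. Excitatory members lie at -0.44 in ACD 1 and 0.33 in ACD 3, motor neuron genes at 0.35 and -0.25, and pan-neuronal genes between -0.15 and 0.07 in all 6.

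The balance of the lineages was read as a ratio in each library, as a description. Excitatory members summed to 20.1, 16.0 and 15.8 FPKM in controls and 13.1, 16.5 and 20.9 in ACD, and inhibitory members to 19.2, 17.4 and 17.9 and to 15.9, 17.1 and 19.2. The excitatory to inhibitory ratio was 0.950 ± 0.0864 in controls and 0.958 ± 0.132 in ACD (SD, n = 3). It ranged more widely within ACD, from 0.822 to 1.09, than the means differed. Lbx1, which is present early in both kinds of neuron, had the highest level of the inhibitory members and so weighs most in their sum. The ratio of Tlx3 to Pax2 alone was 0.692 ± 0.183 in controls and 0.701 ± 0.174 in ACD (SD, n = 3). Transmitter genes gave other values. Slc32a1 was at 50.7, 44.4 and 58.9 FPKM in controls and 65.3, 66.0 and 76.8 in ACD, with each ACD library above each control, but did not pass (0.44, interval 0.16 to 0.72, limma adjusted p = 0.0847). Slc17a6 was at 46.2, 42.1 and 41.9 against 43.4, 47.4 and 50.1 (0.11, limma adjusted p = 0.444). Their ratio was 0.857 ± 0.128 in controls and 0.679 ± 0.0355 in ACD, with 1 control inside the ACD range. None of the 4 inhibitory transmission genes passed. Slc6a5, the glycine transporter of inhibitory neurons, had the highest level among them, at a mean of 65.9 FPKM and with a difference of 0.02 (limma, adjusted p = 0.957). Gad1 and Gad2, which make GABA, had differences of 0.06 and 0.02 (limma, adjusted p = 0.838 and 0.962).

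**Figure D4:**
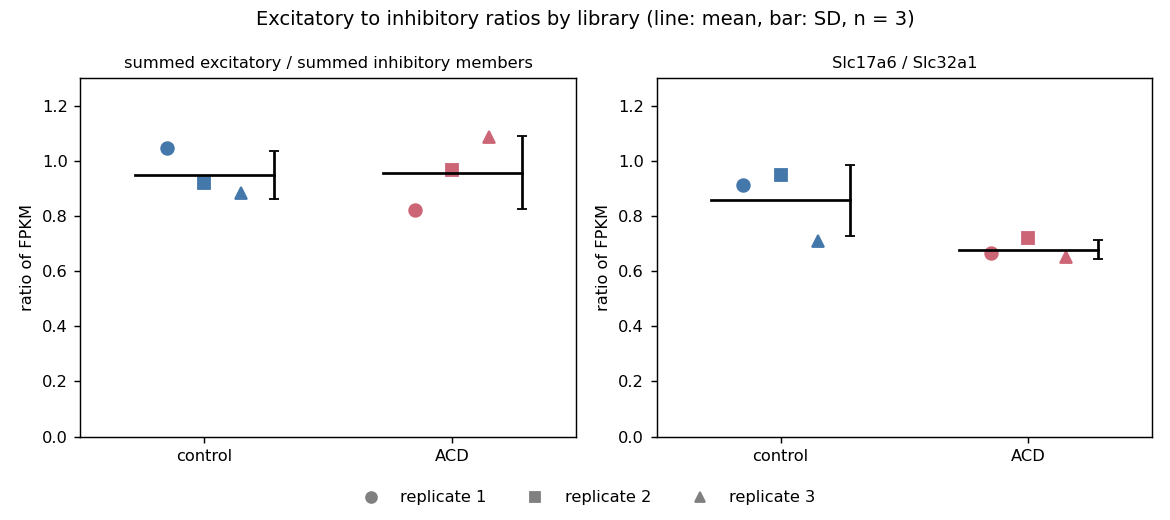
Ratio of FPKM (y axis, from 0) in each library by group (x axis), for summed excitatory over summed inhibitory members on the left and for Slc17a6 over Slc32a1 on the right. Points are libraries, lines means and bars SD. The left ratio overlaps between groups, at 0.950 and 0.958 on average, and the right one has means of 0.857 and 0.679.

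Peptides and other effector genes of the dorsal horn often had the order of ACD libraries seen in the members. None of 10 excitatory dorsal horn genes passed, against 4.34% of all genes tested, and their median was 0.24. Of the 10, 7 had the ACD order of the members, against 18.4% of all genes. Sst, the somatostatin gene of excitatory neurons that carry pain, had the highest level and the smallest p of the 10. It was at 103, 89.3 and 87.2 FPKM in controls and 95.6, 127 and 152 in ACD (0.40, limma adjusted p = 0.217). Of 6 inhibitory dorsal horn genes 5 had that order and 1 passed, Pdyn, which encodes dynorphin and is made by the Bhlhe22 neurons that restrain itch. Pdyn was at 4.44, 3.77 and 3.81 FPKM in controls and 6.07, 6.74 and 7.18 in ACD (0.72, SE 0.10, limma adjusted p = 0.0169). Its groups did not overlap, where those of Bhlhe22 did.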

How the data were processed

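RNA of the cervical cord was sequenced in 3 control and 3 ACD mice, grouped by the sample descriptions. The deposited values are FPKM, 1 table per library. Tools listed in the submitters' processing notes, without their order or role, are DESeq2 1.16.1, featureCounts 1.5.0-p3 and HISAT2 2.0.5, with the build mm10. The kit, strand setting and gene annotation were not given in the sources used here. GENCODE M21 (GRCm38, the same build) gave coordinates, exon lengths and GC content, and RefSeq the promoter sequences. Symbols matched 54409 of 54532 identifiers. Reads were recovered as FPKM times exon length times 1 library constant, whose values are given above. Of the values above 0, 96.7% to 97.0% came within 0.05 of a whole number.

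Limma 3.58.1 in R 4.3.3 (eBayes with trend and robust settings) was run on log2(FPKM + 0.1) for 21369 genes with a mean of at least 0.1, with Benjamini-Hochberg adjustment over all of them. Of these, 386 were higher and 541 lower in ACD, against 208 and 704 with TPM scaling and 857 and 468 with the trend on length and GC removed. Among the 16748 genes with at least 10 mean reads, each member among them, 4.72% were called.

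The members and lists were chosen with earlier results of these data known. The genes named were the 10 members and, of each list, the members that passed or those with the smallest p and the highest level, some of which are not reported here. Others (Ebf1, Mafa, Gad1, Gad2, Prph, C130021I20Rik) were chosen after their values were seen. The labels call the samples biological replicates. Dates of dissection and of library making are not among the labels, so handling and group cannot be told apart. Alternatives were other pseudocounts, filters and scalings, voom, a replicate block and leaving out each library.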

Additional observations from a re-analysis of the deposited data

How the results depend on the processing

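No member passed under any of the 15 alternatives. Of 150 member values 136 kept their direction and 14 turned, 11 of them with a library left out. Left out singly, the libraries gave -0.25 to 0.072 for Lmx1b, -0.27 to 0.16 for Tlx3, -0.068 to 0.11 for Maf, -0.22 to 0.22 for Prrxl1 and -0.13 to 0.076 for Lbx1. Each low end came without ACD 3 and each high end without ACD 1. With 1 library left out Ebf2 ran from -0.38 to -0.055, Gbx1 from -0.35 to -0.15 and Rorb from -0.35 to -0.21. Pax2 ran from -0.19 to -0.024 and Bhlhe22 from 0.088 to 0.25. None of these changed sign with a library left out. The excitatory median ran from -0.25 without ACD 3 to 0.11 without ACD 1, and the inhibitory median from -0.19 to -0.07. Maf turned to -0.070 with TPM scaling, and Prrxl1 to 0.0037 with a pseudocount of 1 and 0.0012 with voom. TPM scaling divides by the FPKM sum of each library, which was 279996 to 299956 in controls and 297035 to 313140 in ACD. It moved the median of all genes from -0.01 to -0.10. Why these sums differ and the cause of the other shifts were not tested.

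Over all genes 927 were called. With no filter 556 were called (221 higher, 335 lower), with voom 1690 (701 higher, 989 lower) and without trend and robust settings 420 (96 higher, 324 lower). TPM scaling gave 208 higher and 704 lower, and removal of the length and GC trend 857 higher and 468 lower. With 1 library left out the calls were 180 to 627 (63 to 314 higher, 117 to 313 lower), the fewest without ACD 3. The replicate block gave 181 (86 higher, 95 lower). Same-numbered libraries had correlations of -0.07, 0.08 and 0.05 between their deviations from the group means, so the numbers were not taken as pairs, and not every library correlated best with its own number. Tlx3 and Gbx1 had the fewest reads, so relative counting error is largest for them.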
